A study of Mus musculus with 160 samples.

Results

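Neuropeptide genes of the striatum were examined in a mouse model of Huntington's disease, as 9 genes chosen by name out of 43432 in the deposited tables. They are Penk, Pdyn, Tac1, Npy, Sst, Cartpt, Nts, Cck and Vip, and each was found by the symbol of its Ensembl identifier. The Q175 mice were heterozygous for a knock-in allele of Htt with an expanded CAG repeat, on the C57BL/6J background, and the wild-type (WT) mice were C57BL/6J without it. CHDI-00390576, an inhibitor of class IIa histone deacetylases, was given by mouth b.i.d. between 4 weeks and 6 months of age, when the tissue was taken. The groups were Q175 mice on vehicle, Q175 mice on 30 mg/kg, Q175 mice on 100 mg/kg and WT mice on vehicle. All 4 groups were dosed by mouth on the same schedule, and no WT mice received the compound. Each group gave 8 striatal and 8 cortical libraries, 4 from males and 4 from females, and each animal gave both tissues, so that 64 of the 160 libraries of the study were used here. The Q175 allele is in every cell of these animals, so a change in a tissue cannot be assigned to a cell type by the genotype.

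Neuropeptides are made as larger precursors, cut by prohormone convertases inside dense core vesicles, and released to act mainly on receptors coupled to G proteins. In the striatum, Penk (the enkephalin precursor) marks the medium spiny projection neurons of the indirect pathway, which carry the dopamine receptor Drd2. Tac1 (the precursor of substance P) and Pdyn (the dynorphin precursor) mark those of the direct pathway, which carry Drd1. Npy (neuropeptide Y) and Sst (somatostatin) are made together in a class of interneurons. Cck (cholecystokinin) and Vip (vasoactive intestinal peptide) are best known from neurons of the cortex, Cartpt encodes the CART peptide, and Nts encodes neurotensin. Loss of enkephalin in the indirect pathway is a long-known feature of Huntington's disease.

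All 9 members passed the filter on low counts in both tissues. Library totals were 30.7 to 38.5 M estimated counts (M for mega) in striatum and 29.8 to 39.3 M in cortex. The summed level of 9 medium spiny markers was 5061 to 9766 CPM (counts scaled to the library size) in the 32 striatal libraries and 894 to 1426 CPM in the 32 cortical ones, so the tissue labels held. Several libraries stood apart. The cortex libraries 30 mg/kg female 4 and male 3 held skeletal muscle transcripts, at summed levels of 16515 and 3363 CPM, and transcripts of the other sex. The striatal WT libraries male 1, male 2 and male 3 held liver transcripts at 344, 162 and 83.6 CPM, against a median of 1.27 CPM over all striatal libraries. The Q175 striata labelled vehicle male 2, 100 mg/kg male 3 and 100 mg/kg male 4 had Wt1 at 0.0634, 0.122 and 0.0838 CPM. That lies in the WT range of 0 to 0.287 CPM, while every other Q175 striatum had at least 3.06 CPM of Wt1. The cortex libraries of the same 3 animals are vehicle male 3, 100 mg/kg male 2 and 100 mg/kg male 1, with 0.220, 0.278 and 0.174 CPM of Wt1. In cortex Wt1 was low in all groups, at 0.174 to 1.07 CPM in Q175 mice and 0.149 to 0.336 CPM in WT mice, and 7 of 24 Q175 libraries lay in the WT range. Htt itself was lower in the striatum of Q175 mice on vehicle than in WT, by a log2 fold change of -0.40 ± 0.08 (SE, edgeR adjusted p = 0.00231). In the 3 Q175 striata with low Wt1, Htt was 93.6 CPM (vehicle male 2), 70.5 CPM (100 mg/kg male 3) and 77.1 CPM (100 mg/kg male 4). The lowest WT striatum, male 1, had 110 CPM of Htt. Other Q175 striata overlapped with WT and reached 123 CPM (vehicle male 3). Whether the labels of the 3 libraries hold was not tested.

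The members spanned a wide range of levels. Levels between genes are given in FPKM (fragments per kilobase, scaled to the library total), which corrects for transcript length, and comparisons within a gene in CPM. The CPM of members are scaled to library sizes adjusted by TMM (trimmed mean of M values), and summed marker levels, Wt1 and Htt to plain library totals. In the striatum of Q175 mice on vehicle, Penk averaged 440.6 ± 105 FPKM, against 685.4 ± 145 FPKM in WT striatum (SD, n = 8 each). Tac1 came next, at 300.7 ± 27.2 FPKM in Q175 mice on vehicle and 249.4 ± 40.7 FPKM in WT. Penk and Tac1 overlapped in range in Q175 mice on vehicle and did not overlap in WT, and the mean levels of the pair were closer in the mutant.

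The order below them was alike in the 2 groups. Sst followed at 87.4 ± 17.0 FPKM in Q175 mice on vehicle and 77.0 ± 6.71 FPKM in WT striatum. Npy and Pdyn were not separated beyond their spread: Npy averaged 47.6 FPKM in Q175 mice on vehicle and 47.2 FPKM in WT, and Pdyn 44.5 FPKM in Q175 mice on vehicle and 45.1 FPKM in WT. Cck averaged 11.4 FPKM in Q175 mice on vehicle and 12.9 FPKM in WT, and overlapped in range with Nts, at 10.4 FPKM in Q175 mice on vehicle and 7.24 FPKM in WT. Vip and Cartpt were the lowest, at 1.99 ± 1.25 and 1.0 ± 0.384 FPKM in WT striatum. Cartpt rested on few reads, with at most 56 estimated counts in any striatal library.

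In WT cortex the order was another. Cck (112.8 ± 42.0 FPKM) and Sst (108.9 ± 32.4 FPKM) led, followed by Penk (76.6 FPKM), Npy (62.3 FPKM), Tac1 (41.9 FPKM), Vip (34.1 FPKM), Pdyn (14.4 FPKM), Nts (6.12 FPKM) and Cartpt (4.11 FPKM). The ranges of neighbours in that order overlapped down to Vip, and again between Nts and Cartpt. Vip and Pdyn, and Pdyn and Nts, were separated.

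The tissues differed in which peptides they held. In WT animals, 7 of the 9 members differed between striatum and cortex of the same animal, by limma on the paired differences in log2 CPM with Benjamini-Hochberg adjustment; 40.5% of the 16888 genes tested did so, 20.3% higher and 20.3% lower. The projection neuron peptides were higher in striatum. The log2 difference was 3.30 ± 0.18 for Penk (adjusted p = 2.33e-15), 2.65 ± 0.13 for Tac1 (adjusted p = 1.55e-16) and 1.74 ± 0.11 for Pdyn (adjusted p = 4.60e-14). The cortical peptides were lower in striatum, Vip by a log2 difference of -4.19 ± 0.30 and Cck by -3.33 ± 0.29. Cartpt was lower by -1.91 ± 0.22.

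In WT animals Sst, Npy and Nts had the smallest differences between the tissues. Sst was lower in striatum, at -0.36 ± 0.14 (limma adjusted p = 0.0490), a call kept in 8 of 16 fits that each left out 1 animal; it was -0.26 (adjusted p = 0.177) without the animal of WT striatum male 2. Npy differed by -0.27 ± 0.14 (adjusted p = 0.123) and Nts by 0.32 ± 0.16 (adjusted p = 0.128), neither of which passed. Nts passed without the animal of WT striatum female 3 (0.46, adjusted p = 0.0235) and Npy without that of Q175 vehicle male 2 (-0.27, adjusted p = 0.0478). Without the 3 animals whose striatum had low Wt1, all from Q175 groups, 8 members passed and 42.7% of genes; Npy was the added one (-0.26, adjusted p = 0.0425).

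**Figure D1:**
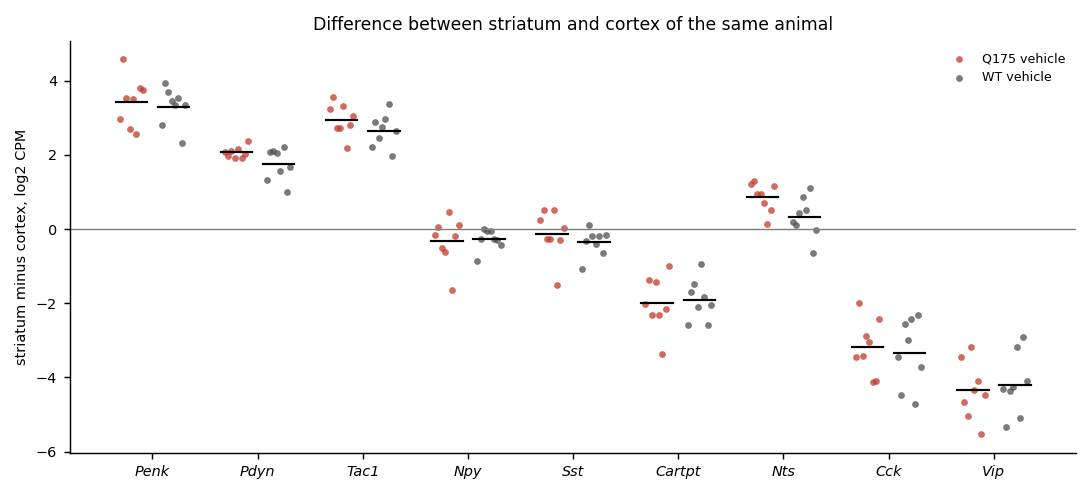
Difference in log2 CPM between striatum and cortex of the same animal (y axis) for each of the 9 peptide genes (x axis); points are animals, 8 on Q175 vehicle and 8 on WT vehicle, and lines are group means. Penk, Tac1 and Pdyn lie above 0 in every animal, Cartpt, Cck and Vip lie below 0 in every animal, and Npy and Sst lie on both sides of 0. Nts lies above 0 in all 8 Q175 animals, from 0.124 to 1.29, and in 6 of 8 WT animals.

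Short stretches of 6 promoters are shown because the TGACG core of the cAMP response element, the site bound by CREB, is the motif best known from peptide genes. The 250 bases before the RefSeq gene start (GRCm38.p6) were searched on both strands for TGACGTCA and for TGACG, which is part of it. A promoter was at hand for 8 of the 9 members. The member without one was Penk, which was therefore not searched. TGACGTCA was found in Sst and Cartpt, and in 508 of all 32851 promoters (1.55%). TGACG was found in Sst, Cartpt, Tac1, Cck, Nts and Vip, and in 5836 of all promoters (17.77%). Each stretch of 30 bases is written 5′ to 3′ along the gene's own strand, with the motif or its reverse complement CGTCA in capitals.
Sst: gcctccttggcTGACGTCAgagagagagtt
Cartpt: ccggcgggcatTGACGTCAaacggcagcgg
Vip: ggatcactactgTGACGtctttcggggagc
Cck: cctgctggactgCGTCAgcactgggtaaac
Nts: attagggaagatCGTCActttccatcaagg
Tac1: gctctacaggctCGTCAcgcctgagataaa
On GRCm38, the Sst stretch is at chr16:23890874-23890903 (minus strand), from 59 to 30 bases before the start. The Cartpt stretch is at chr13:99900777-99900806 (minus strand), 123 to 94 bases before the start, and the Vip stretch at chr10:5639127-5639156 (plus strand), 91 to 62 bases before it. The Cck stretch is at chr9:121495724-121495753 (minus strand), the Nts stretch at chr10:102490567-102490596 (minus strand) and the Tac1 stretch at chr6:7555006-7555035 (plus strand). The Sst, Cartpt and Tac1 stretches lie before the RefSeq start but inside the gene spans given elsewhere here, which are those of GENCODE. The letters describe the sequence only. Members with the motif and members without it were not compared, and binding was not measured.

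Penk was the member that differed most between Q175 and WT striatum. The gene lies at chr4:4133531-4138819 on GRCm38, on the minus strand. It ranged over 404, 583 and 827 CPM (lowest, median and highest) in Q175 mice on vehicle, against 714, 1026 and 1213 CPM in WT mice. Of the 8 Q175 libraries, 7 lay below the lowest WT library and all 8 below the WT median. The group means were 598.2 ± 130 CPM in Q175 mice on vehicle and 980.1 ± 182 CPM in WT mice (SD, n = 8 each), a fold of 0.610. The log2 fold change was -0.71 ± 0.15 (SE, edgeR quasi-likelihood test, adjusted p = 0.00319).

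Penk was the only member of the 9 that passed the test between Q175 mice on vehicle and WT mice in striatum, where 5.76% of the 17229 genes tested passed, 3.16% lower and 2.59% higher. At an unadjusted p under 0.05 the count of members was 3, as 21.5% of all genes were, and DESeq2 called 1 member and 1393 genes. Each library came from another animal. In bulk tissue, fewer neurons that make Penk and less RNA per neuron cannot be told apart.

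Penk was low at both doses as well. It ranged over 319, 482 and 592 CPM (lowest, median and highest) at 30 mg/kg, which did not overlap the WT range. At 100 mg/kg it ranged over 324, 571 and 775 CPM, with 7 of 8 libraries below the lowest WT library. Against WT, the log2 fold change was -1.04 ± 0.15 at 30 mg/kg (edgeR adjusted p = 3.57e-05) and -0.80 ± 0.15 at 100 mg/kg (adjusted p = 0.00112). These comparisons and that of Q175 mice on vehicle share the 8 WT libraries, so the 3 values are not independent of each other.

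The libraries whose Wt1 went against their label were high in Penk. Vehicle male 2 had the highest Penk of its group, 827 CPM, and 100 mg/kg male 3 and male 4 the highest of theirs, 775 and 671 CPM. Without these 3 libraries the log2 fold change of Penk against WT was -0.80 in Q175 mice on vehicle (edgeR adjusted p = 0.00055), -1.05 at 30 mg/kg (adjusted p = 7.99e-06) and -0.95 at 100 mg/kg (adjusted p = 0.000161), where 6.45%, 6.66% and 5.45% of genes passed. Without WT male 1, the library with the most liver transcripts, Penk was lower in Q175 mice on vehicle, at -0.67 (adjusted p = 0.00875).

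**Figure D2:**
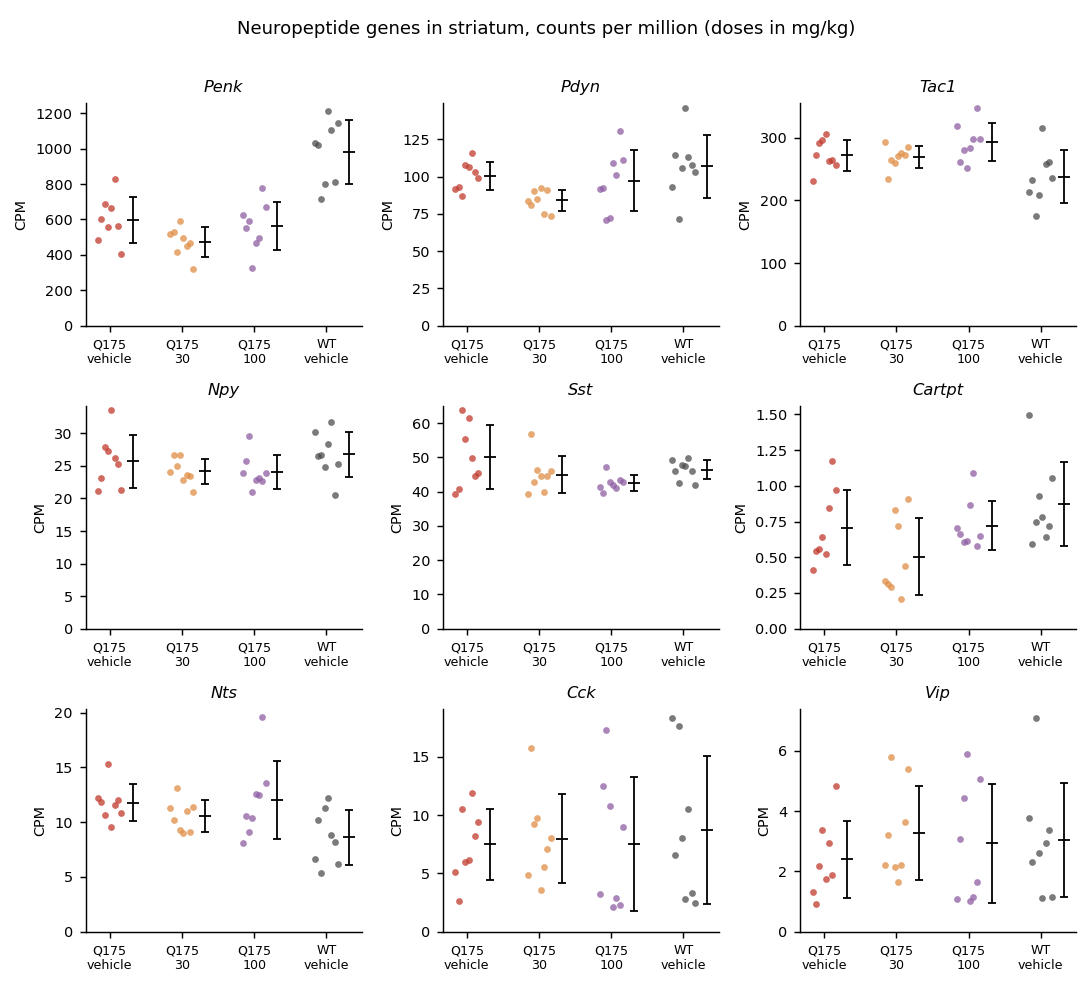
CPM of the 9 peptide genes in striatum (y axis, from 0) in Q175 mice on vehicle, at 30 and 100 mg/kg, and in WT mice on vehicle (x axis); points are libraries, 8 per group, and bars are mean ± SD. Penk lies below the lowest WT library in 7, 8 and 7 of the 8 libraries of the 3 Q175 groups, and the other members overlap with WT in every Q175 group. The share of all genes without overlap was not computed.

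The direct pathway peptides overlapped with WT in Q175 mice on vehicle. Tac1 (chr6:7554879-7565834) ranged over 230, 268 and 306 CPM (lowest, median and highest) in Q175 mice on vehicle, against 174, 234 and 316 CPM in WT striatum. The ranges overlapped, and 7 of the 8 Q175 libraries lay above the WT median. Its log2 fold change of 0.21 ± 0.08 (edgeR adjusted p = 0.119) did not pass.

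At 100 mg/kg Tac1 rose above WT. It ranged over 252, 291 and 347 CPM, with all 8 libraries above the WT median and 2 above the highest WT library. The means were 292.7 ± 30.5 CPM at 100 mg/kg and 237.6 ± 42.4 CPM in WT, with a log2 fold change of 0.31 ± 0.08 (edgeR adjusted p = 0.0158). At 30 mg/kg the range was 234, 271 and 293 CPM and the log2 fold change 0.19 ± 0.08 (adjusted p = 0.162). The call at 100 mg/kg was lost without WT female 3 (log2 fold change 0.25, adjusted p = 0.0507). Without WT male 1, Tac1 passed in Q175 mice on vehicle, where 4.87% of genes then passed (0.26, adjusted p = 0.0291), and at 30 mg/kg, where 5.42% did (0.25, adjusted p = 0.0397).

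Pdyn (chr2:129686565-129699844, minus strand) ranged over 86.8, 101 and 116 CPM in Q175 mice on vehicle, against 71.9, 107 and 146 CPM in WT striatum. The Q175 libraries lay within the WT range, and the log2 fold change was -0.08 ± 0.10 (edgeR adjusted p = 0.628). It ranged over 73.5, 84.4 and 92.4 CPM at 30 mg/kg, with all 8 libraries below the WT median but none below the lowest WT library. The means were 84.1 ± 7.20 CPM at 30 mg/kg and 106.9 ± 20.9 CPM in WT, a log2 fold change of -0.33 ± 0.10 (adjusted p = 0.0337). At 100 mg/kg it ranged over 70.7, 96.8 and 131 CPM and did not pass.

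Thus 2 members passed at 30 mg/kg against WT, Penk and Pdyn, both lower, where 6.69% of genes passed, 3.32% higher and 3.37% lower. At 100 mg/kg 2 members passed, Penk lower and Tac1 higher, where 4.94% of genes passed, 2.4% higher and 2.54% lower. The Pdyn call was kept in 24 of 32 fits that each left out 1 library and in 9 of 14 other settings. It was lost without any of the males of the 30 mg/kg group, WT female 2, female 4, male 1 or male 2, where the adjusted p lay between 0.0507 and 0.0911; the last is without WT male 1, with a log2 fold change of -0.28. Tac1 and Pdyn mark the same pathway, and the difference between their changes was not tested.

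The interneuron peptides did not pass in any comparison with WT. Sst (chr16:23889573-23890958, minus strand) ranged over 39.5, 47.5 and 63.8 CPM in Q175 mice on vehicle, against 42.1, 46.7 and 49.7 CPM in WT striatum. The Q175 libraries lay on both sides of the WT range, 4 above it and 2 below it. Sst had a log2 fold change of 0.11 ± 0.08 (edgeR adjusted p = 0.444). Npy (chr6:49822710-49829507) ranged over 21.1, 25.7 and 33.6 CPM in Q175 mice on vehicle, against 20.5, 26.6 and 31.8 CPM in WT striatum. The ranges overlapped, and the log2 fold change was -0.06 ± 0.09 (adjusted p = 0.733).

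Neurotensin was above the WT median in all 8 striata of Q175 mice on vehicle, without passing the test. Nts (chr10:102481756-102490486, minus strand) ranged over 9.56, 11.7 and 15.4 CPM in Q175 mice on vehicle, against 5.36, 8.51 and 12.2 CPM in WT striatum. A single Q175 library lay above the highest WT library, and the ranges overlapped. The means were 11.8 ± 1.69 CPM in Q175 mice on vehicle and 8.61 ± 2.48 CPM in WT mice, with a log2 fold change of 0.45 ± 0.16 (edgeR adjusted p = 0.0869). It was 0.30 ± 0.16 at 30 mg/kg (adjusted p = 0.324) and 0.48 ± 0.16 at 100 mg/kg (adjusted p = 0.0808). Without WT male 1, Nts passed in Q175 mice on vehicle (0.53, adjusted p = 0.0452) and at 100 mg/kg, where 3.65% of genes passed (0.56, adjusted p = 0.0428). It also passed at 100 mg/kg without 100 mg/kg female 1 (adjusted p = 0.0468) or WT female 4 (adjusted p = 0.0379). Without the 3 Q175 striata with low Wt1 it was 0.29 at 100 mg/kg (adjusted p = 0.352).

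Cartpt (chr13:99898489-99901091, minus strand) was near 1 CPM or below in almost every striatal library. It ranged over 0.413, 0.599 and 1.17 CPM in Q175 mice on vehicle, against 0.596, 0.766 and 1.49 CPM in WT striatum. The range at 30 mg/kg was 0.211, 0.388 and 0.905 CPM, with 5 of 8 libraries below the lowest WT library. The log2 fold change against WT was -0.34 ± 0.25 in Q175 mice on vehicle (edgeR adjusted p = 0.436) and -0.81 ± 0.26 at 30 mg/kg (adjusted p = 0.0545). DESeq2, which called 7.13% of genes there, called the value at 30 mg/kg (-0.82, adjusted p = 0.0328). In edgeR it passed without 1 of 6 libraries, most clearly without 30 mg/kg female 4 (-1.02, adjusted p = 0.0125).

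Cck and Vip varied widely from library to library. Cck (chr9:121489824-121495694, minus strand) ranged over 2.66, 7.19 and 11.9 CPM in Q175 mice on vehicle, against 2.49, 7.31 and 18.3 CPM in WT striatum. Vip (chr10:5639218-5647617) ranged over 0.913, 2.02 and 4.85 CPM in Q175 mice on vehicle, against 1.11, 2.77 and 7.09 CPM in WT striatum. The groups overlapped for both genes, and the log2 fold changes were 0.01 ± 0.41 for Cck (edgeR adjusted p = 0.989) and -0.29 ± 0.40 for Vip (adjusted p = 0.696). The SE of Cck and Vip was more than that of any other member.

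Their levels moved with markers of cortical tissue. The summed level of 9 markers of cortical excitatory neurons ranged over 41.5, 113 and 187 CPM (lowest, median and highest) in striata of Q175 mice on vehicle, 66.4, 142 and 210 CPM at 30 mg/kg, 43.7, 108 and 228 CPM at 100 mg/kg and 51.5, 120 and 277 CPM in WT striata. As deviations of log2 CPM from the mean of each group over the 32 striatal libraries, Cck went with the mean of these markers at a Pearson r of 0.96 and Vip at 0.84. Tac1 and Pdyn went against them, at -0.59 and -0.55. All values of a library share its dissection, its RNA and its total, and the part of the markers in the peptide levels was not tested.

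**Figure D3:**
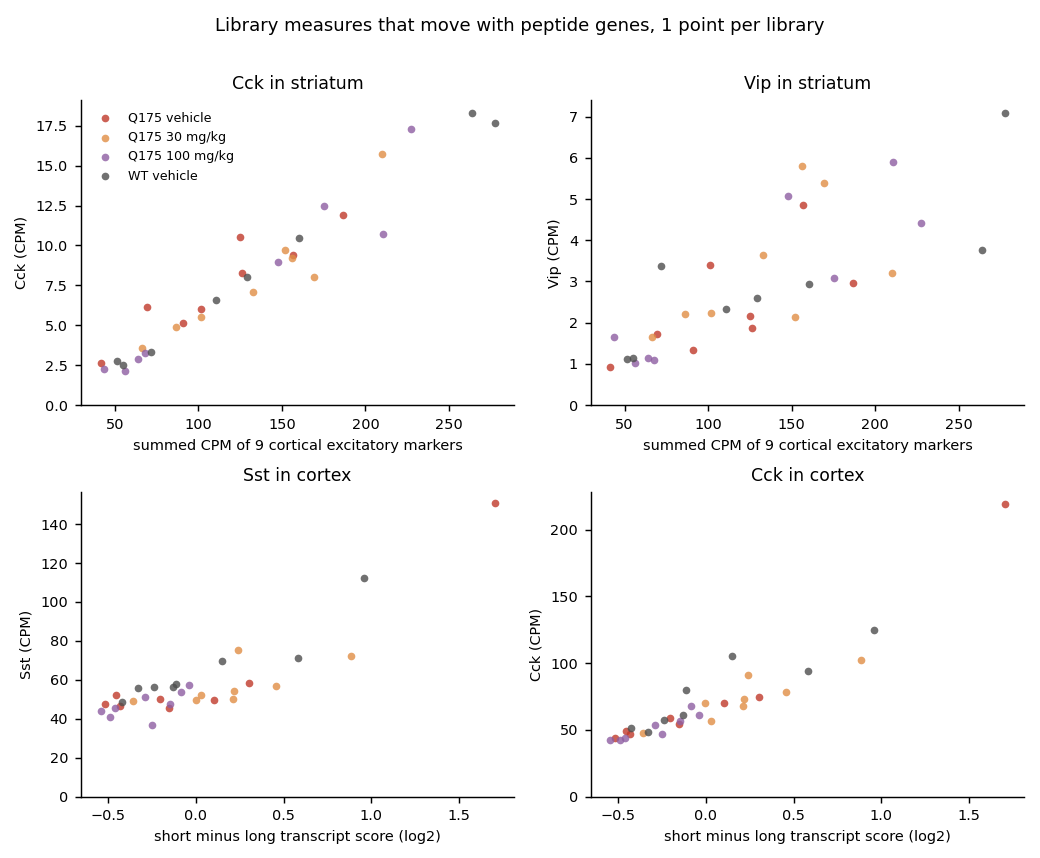
CPM of a peptide gene (y axis) in each library against a measure of the same library (x axis), with points in the colours of the 4 groups: Cck and Vip in striatum against the summed CPM of 9 cortical excitatory markers, and Sst and Cck in cortex against the log2 difference between short and long transcripts. Cck in striatum climbs with the markers in every group, and the cortical library at 1.70 on the lower axes, Q175 vehicle male 3, has the highest Sst and Cck.

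Several pairs of members varied together within groups. Over the 32 striatal libraries the r of deviations was 0.78 for Cck with Vip, 0.66 for Pdyn with Tac1, 0.66 for Pdyn with Nts and 0.61 for Npy with Sst. It was 0.55 for Penk with Npy, 0.53 for Penk with Pdyn and 0.48 for Penk with Tac1. In cortex Npy with Sst had 0.91, Npy with Cck 0.90 and Penk with Cck 0.83. In striatum Penk went with the mean of 9 medium spiny markers at 0.89, and Tac1 and Pdyn at 0.36 and 0.44. These are descriptions of libraries that share their total and dissection.

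The genes most like each member, by Pearson r of log2 CPM over the 32 striatal libraries were sought among 12979 genes. For Penk they were Sh2d5 (0.96), Lrrc10b (0.94) and Zfp180 (0.94). For Cck they were Olfm1 (0.95), Neurod2 (0.94) and Sstr3 (0.94), and for Vip Pter (0.94), Gng2 (0.93) and Rxfp1 (0.93). The other members had lower leading values: Npy with Brk1 (0.84), Tac1 with Sertad4 (0.81), Pdyn with Fam171a1 (0.78), Sst with Fam220a (0.73), Nts with Gpr101 (0.69) and Cartpt with Crym (0.56).

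CHDI-00390576 did not move any member past the test against vehicle in Q175 striatum. With edgeR, 0 members and 0% of the 17229 genes passed at either dose against vehicle or between the doses. At an unadjusted p under 0.05 the count of members was 2 at 30 mg/kg, 1 at 100 mg/kg and 0 between the doses, and that of all genes 2873, 4243 and 247. DESeq2 called 0 members in each of them.

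The members with an unadjusted p under 0.05 against vehicle were Penk and Pdyn at 30 mg/kg and Sst at 100 mg/kg. Penk averaged 473.5 ± 82.7 CPM at 30 mg/kg and 598.2 ± 130 CPM on vehicle, a log2 fold change of -0.33 ± 0.15 (edgeR adjusted p = 0.288). Pdyn at 30 mg/kg lay below the vehicle median in all 8 libraries, with a log2 fold change of -0.25 ± 0.10 (adjusted p = 0.288). Sst at 100 mg/kg ranged over 39.7, 42.4 and 47.2 CPM, with all 8 libraries below the vehicle median and a log2 fold change of -0.24 ± 0.08 (adjusted p = 0.199). Penk at 100 mg/kg averaged 562.6 ± 137 CPM and overlapped with vehicle, with a log2 fold change of -0.09 ± 0.15.

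The other members had larger SE or smaller differences. At 30 mg/kg against vehicle the log2 fold change was -0.47 ± 0.26 for Cartpt, 0.43 ± 0.40 for Vip, -0.16 ± 0.16 for Nts, -0.15 ± 0.08 for Sst, -0.09 ± 0.09 for Npy, -0.06 ± 0.41 for Cck and -0.02 ± 0.08 for Tac1. For 100 mg/kg against vehicle it was 0.24 ± 0.40 for Vip, -0.23 ± 0.41 for Cck, 0.10 ± 0.08 for Tac1, -0.10 ± 0.09 for Npy, -0.06 ± 0.10 for Pdyn, 0.05 ± 0.25 for Cartpt and 0.02 ± 0.16 for Nts. Neither dose gave a called member. Between the doses the values, 100 against 30 mg/kg, ran from -0.19 ± 0.40 for Vip to 0.52 ± 0.26 for Cartpt, with 0.24 ± 0.15 for Penk and 0.19 ± 0.10 for Pdyn, and the adjusted p of every member was 0.999976.

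In cortex no member passed in any of the 6 comparisons. Between Q175 mice on vehicle and WT mice, 0.0341% of the 17597 genes tested passed in edgeR. Of the 9 members, 2 had an unadjusted p under 0.05, as 3.21% of all genes did, and DESeq2 called 1, Pdyn, and 0.171% of genes. Those 2 members were the opioid peptide genes, Pdyn and Penk. The other 7 lay between -0.16 ± 0.12 for Vip and 0.03 ± 0.20 for Npy, with -0.11 ± 0.14 for Tac1, -0.10 ± 0.23 for Cartpt, -0.09 ± 0.19 for Sst, -0.07 ± 0.17 for Nts and -0.04 ± 0.26 for Cck, each with an adjusted p of 1 in edgeR.

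Pdyn in cortex ranged over 21.1, 24.5 and 32.1 CPM in Q175 mice on vehicle, against 26.4, 33.9 and 48.9 CPM in WT mice. All 8 Q175 libraries lay below the WT median and 5 below the lowest WT library. The log2 fold change was -0.44 ± 0.11 (edgeR adjusted p = 0.159), and DESeq2 gave -0.43 (adjusted p = 0.0345). Against WT it was -0.38 ± 0.11 at 30 mg/kg (edgeR adjusted p = 0.102) and -0.39 ± 0.11 at 100 mg/kg (adjusted p = 0.213).

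Penk in cortex ranged over 30.5, 53.6 and 148 CPM in Q175 mice on vehicle, against 66.7, 105 and 169 CPM in WT mice. Of the 8 Q175 libraries, 6 lay below the lowest WT library. The 148 CPM came from vehicle male 3, and the next highest library of that group had 76.4 CPM. That library is from the same animal as striatum vehicle male 2, 1 of the 3 animals whose Wt1 went against the Q175 label. The log2 fold change was -0.79 ± 0.24 (edgeR adjusted p = 0.491), and -1.06 ± 0.20 without vehicle male 3 (adjusted p = 0.0258), where 0.0622% of genes passed. Without the cortex libraries of all 3 animals, an alternative added after the data were seen, it was -1.06 ± 0.20 (adjusted p = 0.0373), and 1 member and 0.0788% of genes passed; at 30 and 100 mg/kg against WT 0 members passed then, against 0.698% and 0.124% of genes, with Penk at -0.69 and -1.02 (adjusted p = 0.105 and 0.0523). At 30 mg/kg Penk ranged over 50.7, 71.6 and 79.3 CPM, with a log2 fold change against WT of -0.69 ± 0.24 (adjusted p = 0.247), and at 100 mg/kg over 36.8, 62.7 and 79.5 CPM, with -0.88 ± 0.24 (adjusted p = 0.207). Markers of medium spiny neurons moved with the genotype in cortex as well. Their summed level ranged over 967, 1041 and 1155 CPM in Q175 mice on vehicle, against 1200, 1300.1 and 1426 CPM in WT cortex, and the groups did not overlap. Of 9 medium spiny markers, 4 had an unadjusted p under 0.05 and were lower, with a list median of -0.32. Of 5 indirect pathway markers 3 did so, with a median of -0.71, against 0.01 over all genes. Counting both directions, 3.21% of all genes had such a p. None of these markers passed the adjusted test. Penk went with the medium spiny markers at r = 0.69 within groups. Their part in the cortical Penk values was not tested.

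**Figure D4:**
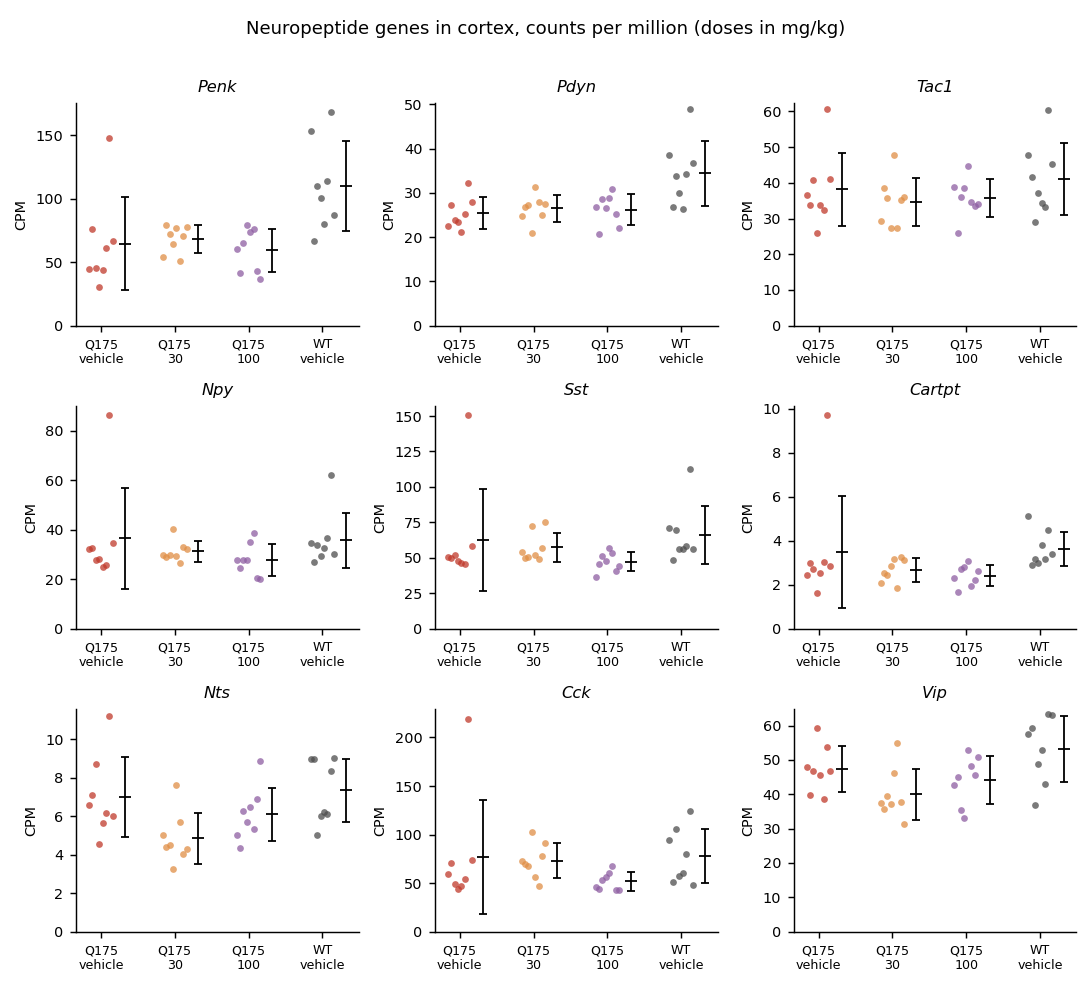
CPM of the 9 peptide genes in cortex (y axis, from 0) in Q175 mice on vehicle, at 30 and 100 mg/kg, and in WT mice on vehicle (x axis); points are libraries, 8 per group, and bars are mean ± SD. All groups overlap with WT, and the library Q175 vehicle male 3 lies above the rest of its group for Penk, Tac1, Npy, Sst, Cartpt and Cck.

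The cortical spread of several members moved with a score of short against long transcripts. A score was computed for each library as the difference between the median log2 deviation of genes whose transcripts are under 1000 bases and that of genes over 5000 bases. It ranged over -0.52, -0.18 and 1.70 (lowest, median and highest) in cortex of Q175 mice on vehicle, -0.36, 0.22 and 0.88 at 30 mg/kg, -0.54, -0.27 and -0.04 at 100 mg/kg and -0.42, -0.12 and 0.96 in WT mice. The lengths implied by the deposited FPKM and counts were 566 bases for Npy, 599 for Sst, 685 for Cck, 874 for Cartpt and 939 for Tac1, among the shorter transcripts, and 1176 for Nts, 1428 for Penk, 1527 for Vip and 2355 for Pdyn.

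Within groups, over the 32 cortical libraries, the score went with Cck at r = 0.95, Npy at 0.90, Sst at 0.89, Penk at 0.82 and Cartpt at 0.81. It went with Tac1 at 0.55, Pdyn, the longest, at 0.53, Nts, shorter than Penk, at 0.18 and Vip at -0.02. The shortest members, Npy, Sst, Cck and Cartpt, thus had an r of 0.81 to 0.95, and the rest did not follow the order of length. In striatum it went with Npy at 0.77, Penk at 0.59 and Sst at 0.42. With the score as a covariate, an alternative added after the data were seen, Penk passed in cortex between Q175 mice on vehicle and WT mice (-0.85 ± 0.13, edgeR adjusted p = 0.00169), as did Pdyn (-0.43, adjusted p = 0.0202); 0.421% of genes passed in that fit. RNA quality values are not in the labels used here, and the part of the score in these results was not tested.

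Against WT at 30 mg/kg, where 0.688% of genes passed in cortex, the members nearest the threshold were Pdyn, Vip and Nts. Nts ranged over 3.24, 4.44 and 7.63 CPM at 30 mg/kg, against 5.01, 7.29 and 9.05 CPM in WT cortex. Its log2 fold change was -0.61 ± 0.17 (edgeR adjusted p = 0.107), and 5 of 8 libraries lay below the lowest WT library. Vip ranged over 31.2, 37.6 and 55.0 CPM at 30 mg/kg, against 37.0, 55.2 and 63.3 CPM in WT cortex, with -0.41 ± 0.12 (adjusted p = 0.107). Penk was -0.69, Cartpt -0.45 ± 0.23, Tac1 -0.24 ± 0.15, Sst -0.19 ± 0.19, Npy -0.18 ± 0.20 and Cck -0.08 ± 0.26, none of which passed. In all, 4 members had an unadjusted p under 0.05, as 11% of all genes did, and DESeq2 called 0. This group holds the 2 cortex libraries with muscle transcripts, and without them the count was also 0. Leaving out 1 library, Nts passed without 30 mg/kg male 1 (-0.71, adjusted p = 0.0312), Pdyn without WT male 1 (-0.43, adjusted p = 0.0449), and Vip without 30 mg/kg male 2 (-0.48, adjusted p = 0.0298) or WT female 3 (-0.47, adjusted p = 0.0434).

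At 100 mg/kg against WT, where 0.0455% of genes passed, 6 members had an unadjusted p under 0.05 in edgeR, as 8.39% of all genes did, and DESeq2 called 0. Cck ranged over 42.4, 50.1 and 67.6 CPM at 100 mg/kg, against 48.2, 70.3 and 124 CPM in WT cortex, a log2 fold change of -0.59 ± 0.26 (edgeR adjusted p = 0.530). Sst ranged over 36.8, 46.4 and 57.1 CPM at 100 mg/kg, against 48.6, 57.2 and 112 CPM in WT cortex, with -0.48 ± 0.19 (adjusted p = 0.530). For both, all 8 libraries at 100 mg/kg lay below the WT median. Cartpt was -0.58 ± 0.23 (adjusted p = 0.530). Npy was -0.36 ± 0.20, Nts -0.28 ± 0.17, Vip -0.27 ± 0.12 and Tac1 -0.20 ± 0.15.

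Against vehicle in Q175 cortex, 0 members passed in edgeR at 30 mg/kg (0.318% of genes) and at 100 mg/kg (0% of genes), with 2 members under an unadjusted p of 0.05 at each dose and 0 called by DESeq2; 16.1% of all genes were under it at 30 mg/kg and 3.47% at 100 mg/kg. The member with the smallest p was Nts at 30 mg/kg, with a log2 fold change of -0.54 ± 0.17 (adjusted p = 0.278), followed by Vip at -0.25 ± 0.12. The other members ran from -0.35 ± 0.23 for Cartpt to 0.10 ± 0.24 for Penk at 30 mg/kg. For 100 mg/kg Cck was -0.55 ± 0.26, Cartpt -0.48 ± 0.23, Sst -0.39 ± 0.19 and Npy -0.39 ± 0.20 (adjusted p = 0.811 each), and the rest ran from -0.21 ± 0.17 for Nts to 0.05 ± 0.11 for Pdyn. Between the doses 0.693% of genes passed, and 0 members, of which 0 had an unadjusted p under 0.05, while 45.8% of all genes did. DESeq2 called 4672 genes between the doses, and 0 members. There Cck was -0.51 ± 0.26 (edgeR adjusted p = 0.123) and Sst -0.29 ± 0.19 (adjusted p = 0.229), and the others ran from -0.19 ± 0.24 for Penk to 0.33 ± 0.17 for Nts. Cck passed without Q175 vehicle male 3 (-0.49, adjusted p = 0.0344) and Nts without 30 mg/kg male 1 (0.44, adjusted p = 0.0437), when 39.1% and 36.5% of genes passed.

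**Figure D5:**
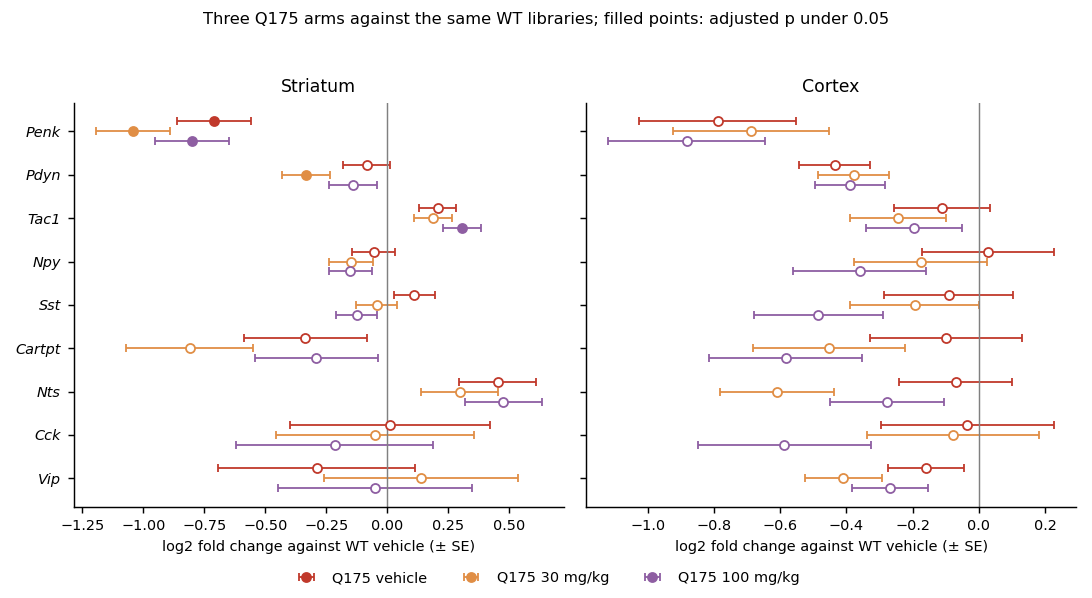
Log2 fold change of the 9 peptide genes (rows) against WT vehicle, with SE, in striatum and cortex, for Q175 mice on vehicle, 30 mg/kg and 100 mg/kg; filled points have an edgeR adjusted p under 0.05 and all 3 groups share the WT libraries. In striatum the filled points are Penk in all 3 groups (-0.71, -1.04 and -0.80), Pdyn at 30 mg/kg (-0.33) and Tac1 at 100 mg/kg (0.31); in cortex none is filled.

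Whether the genotype acted differently on a member in the 2 tissues was tested on the difference between striatum and cortex of each animal. With limma, 0 of the 9 members passed, as did 0.142% of the 16888 genes; 2 members had an unadjusted p under 0.05, as 6.06% of all genes did, and edgeR with the animal as a block called 0. The striatal log2 fold change minus the cortical one was 0.55 ± 0.23 for Nts (adjusted p = 0.723) and 0.32 ± 0.16 for Pdyn (adjusted p = 0.774), whose fold changes were -0.08 in striatum and -0.44 in cortex. For Penk it was 0.12 ± 0.26 (adjusted p = 0.863), and the difference between the tissues did not pass. Without the 3 animals with low striatal Wt1, 0 members and 0.793% of genes passed, with Nts at 0.64 ± 0.22 (adjusted p = 0.179).

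No member passed the test of a difference in the genotype effect between the sexes. In striatum 0 members and 0.0058% of genes passed the interaction in edgeR, 2 members had an unadjusted p under 0.05, as 4.19% of all genes did, and DESeq2 called 0. Penk was lower in Q175 mice on vehicle, at -0.80 ± 0.21 in males (edgeR adjusted p = 0.0435) and at -0.61 ± 0.21 in females (adjusted p = 0.180), with 4 animals a group. Tac1 was 0.02 ± 0.10 in males and 0.39 ± 0.10 in females (adjusted p = 0.0657), an interaction of -0.37 ± 0.15 (adjusted p = 0.9999). Cck was 0.90 ± 0.53 in males and -1.06 ± 0.52 in females, an interaction of 1.95 ± 0.74 (adjusted p = 0.9999). The summed cortical markers in the same striata had medians of 141 CPM in Q175 males on vehicle and 63.3 CPM in WT males, and of 96.0 CPM in Q175 females on vehicle and 196 CPM in WT females.

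The genes that handle these peptides were examined as lists. Of all genes tested in striatum, 2.59% rose and 3.16% fell in Q175 mice on vehicle against WT. Of 22 peptide receptors tested, 1 rose and 0 fell. It was Oprl1, the nociceptin receptor, with a log2 fold change of 0.44 ± 0.08 (edgeR adjusted p = 0.000567). Oprl1 was also higher at 30 mg/kg (0.36) and 100 mg/kg (0.35) against the same WT libraries, and Npy1r, a receptor of neuropeptide Y, at 30 mg/kg (0.36 ± 0.09, adjusted p = 0.0135). The list's median in Q175 mice on vehicle was -0.04, against 0.02 over all genes tested.

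Of 16 genes of peptide processing and dense core vesicles, 1 rose and 1 fell in striatum of Q175 mice on vehicle against WT. In that comparison 5.76% of all genes passed. Pcsk2, a convertase that cuts proenkephalin and prodynorphin, was lower, at -0.21 ± 0.05 (edgeR adjusted p = 0.0112). Scg5, the chaperone of that convertase, was higher by 0.29 ± 0.08 (adjusted p = 0.0311). Of 9 peptide degrading enzymes, Ece2 alone passed, higher by 0.55 ± 0.11 (adjusted p = 0.00292). Of 23 other neuropeptide genes, 11 were tested, and Crh (corticotropin-releasing hormone) alone passed, lower at -1.30 ± 0.38 (adjusted p = 0.0387). The medians of these 3 lists were -0.03, -0.01 and -0.10, against 0.02 over all genes tested.

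Markers of the neurons that make the peptides were lower in part. Of all genes, 3.16% were lower and 2.59% higher in striatum of Q175 mice on vehicle. Of 9 medium spiny markers, 5 fell and 0 rose in Q175 mice on vehicle against WT, among them Pde10a (-0.90 ± 0.12) and Arpp21 (-0.71 ± 0.11), with a list median of -0.39. Their summed level ranged over 5615, 6504 and 7652 CPM in Q175 mice on vehicle, against 7548, 8618 and 9766 CPM in WT striatum. The part of these markers in the Penk result was not tested.

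Both pathways had markers that fell in Q175 mice on vehicle, where 3.16% of all genes fell. Of 5 indirect pathway markers tested, 2 fell, Gpr6 (-0.40 ± 0.08) and Upb1 (-0.90 ± 0.15), and 0 rose. Of 7 direct pathway markers, 2 fell, Drd1 (-0.61 ± 0.09, edgeR adjusted p = 4.92e-05) and Sfxn1 (-0.35 ± 0.08), and 0 rose. The list medians were -0.35 for the indirect and -0.11 for the direct pathway, against 0.02 over all genes tested. At an unadjusted p under 0.05 in edgeR, 1 direct pathway marker was higher and 2 were lower, as 21.5% of all genes were, counting both directions. So Drd1 fell in the same libraries in which Tac1 was 0.21 ± 0.08 and Pdyn -0.08 ± 0.10, while the direct pathway markers did not all move 1 way.

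At the doses, 4 of 5 indirect pathway markers were lower than WT at 30 mg/kg and 3 at 100 mg/kg, Adora2a among them (-0.74 ± 0.18 and -0.64 ± 0.18). Of 7 direct pathway markers, 1 was higher and 2 lower at 30 mg/kg, and 2 were higher and 2 lower at 100 mg/kg. Eya1 was the higher one at 30 mg/kg (0.43 ± 0.09), and Eya1 (0.43 ± 0.09) and Isl1 (0.34 ± 0.10) those at 100 mg/kg. Of all genes, 3.37% were lower and 3.32% higher at 30 mg/kg, and 2.54% lower and 2.4% higher at 100 mg/kg. Of 5 markers of the Sst and Npy interneurons, 0 passed in edgeR in the 3 comparisons with WT, and 0 had an unadjusted p under 0.05. Their summed level ranged over 61.1, 83.4 and 90.3 CPM in Q175 mice on vehicle, against 68.2, 80.4 and 91.1 CPM in WT striatum.

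In cortex the same lists gave 0 calls in edgeR between Q175 mice on vehicle and WT mice, where 0.0341% of all genes passed. At an unadjusted p under 0.05, 1 of 22 receptors, 3 of 16 processing genes and 0 of 9 degrading enzymes were lower and none was higher. Among all genes, 3.21% had such a p, counting both directions. At 30 mg/kg against WT, Scg2, the precursor of secretoneurin, fell, with a log2 fold change of -0.32 ± 0.06 (edgeR adjusted p = 0.0159), as did Crh with -0.68 ± 0.15 (adjusted p = 0.0202). Drd1 (-0.48), Upb1 (-0.85) and Arpp21 (-0.40) of the neuron marker lists were lower in that comparison too, while Pvalb was higher by 2.85 and all 5 skeletal muscle markers tested were higher, with a median of 7.67. Without the 2 libraries that hold muscle transcripts, none of these passed: Scg2 was -0.27 ± 0.07 (adjusted p = 0.203), Crh -0.69 ± 0.17 (adjusted p = 0.171), Arpp21 -0.34 ± 0.07 and Pvalb -0.12 ± 0.20.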

How the data were processed

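Libraries were made from total RNA of flash-frozen tissue (Qiagen miRNeasy kit), per the labels' protocols. The submitters' processing notes name CASAVA 1.8.2; aligner, build, annotation, counter and strand use were not given in the sources used here. The authors deposited estimated counts, rounded here since 26.3% of values above 0 were not whole (tolerance 0.001), and FPKM. CPM were scaled by TMM; marker sums used library totals. Each tissue was fitted with edgeR 4.0.16 (R 4.3.3; filterByExpr, robust quasi-likelihood, group and sex, 32 libraries), with Benjamini-Hochberg adjustment over all genes and a threshold of 0.05. Tissues were compared within animals by limma 3.58.1. DESeq2 1.42.0, limma on FPKM and other settings gave alternatives. Counts lack molecular identifiers, so depth limits counting error only. Titles gave group and replicate; the animal number joined tissues. The fits were tested on simulated data. All 9 members were tested in every comparison; the rule was to name all 9, and where a comparison had no call some are given as a range; of each list, its counts and at most 3 genes that passed; and the genes most like a member by Pearson r. The members and lists were chosen with earlier results of these data known.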

Additional observations from a re-analysis of the deposited data

Results flagged for a closer look

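In 12 of 72 groups of 8 libraries the highest library of a member stood apart from the others by Dixon's test. Chance alone gives about 1 in 20 where groups are independent and values normally distributed. The values here are CPM without a log, and several members vary together. The count can therefore not be set against that rate. Of the 12, 6 come from a single cortical library and are not separate events.

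In cortex, Q175 vehicle male 3 was the highest library for 6 members. It had 148 CPM of Penk (next 76.4), 60.7 of Tac1 (next 41.1), 86.5 of Npy (next 34.5), 151 of Sst (next 58.3), 9.70 of Cartpt (next 3.01) and 219 of Cck (next 74.2), with the highest short transcript score of its group, 1.70. It is from the same animal as striatum vehicle male 2, whose Wt1 lay in the WT range, and its own Wt1 was 0.220 CPM, against 0.149 to 0.336 CPM in WT cortex. WT male 3 had 62.2 CPM of Npy (next 36.6) and 112 of Sst (next 71.0), with a score of 0.96. The library 30 mg/kg female 4 had 40.4 CPM of Npy (next 32.9); it is a library with muscle transcripts. The part of the score and of the label in these values was not tested.

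In striatum, Sst was 56.7 CPM in 30 mg/kg female 2 (next 46.4), Nts was 15.4 CPM in Q175 vehicle female 4 (next 12.2) and Vip was 7.09 CPM in WT female 3 (next 3.76).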

How the results depend on the processing

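Penk kept its call in striatum in all 3 comparisons with WT, in each of 14 other settings and 32 fits without 1 library; in Q175 mice on vehicle its log2 fold change lay between -0.85 and -0.64. The counts of members called moved as follows, where other settings within a ratio of 1.5 were taken as unchanged. By that rule 3 against 2 is left out below. In striatum DESeq2 called 3 members at 30 mg/kg against WT (7.13% of genes). At 100 mg/kg limma on log2(FPKM + 0.1) called 3, and the other settings ran from 2 to 3. The share of all genes in these settings at 100 mg/kg is not given here, nor that in every fit without 1 library below. Those counts can therefore not be set against all genes. The causes were not tested. In striatum between Q175 mice on vehicle and WT the count was 3 with limma on log2(FPKM + 0.1) (5.1% of all genes passed), on log2(FPKM + 1) (5.08%) and without WT male 1 (4.87%; Penk, Tac1 and Nts), 2 with the transcript length covariate alone (8.62%) or with the cortical marker covariate (9.3%), and 1 to 3 without 1 library. At 30 mg/kg against WT it was 1 with limma on log2(FPKM + 1) (6.4%), with only the 2 groups in the fit (5.85%) and without sex (6.47%), 5 with both covariates (16.3%), and 1 to 3 without 1 library. At 100 mg/kg against WT it was 1 to 3 without 1 library, with 1 without WT female 3 (4.28%). In cortex the count between Q175 mice on vehicle and WT was 1 with DESeq2 (0.171%), 1 (Penk) without the cortex libraries of the 3 animals with low striatal Wt1 (0.0788%), 2 with the length covariate (0.421%) and 0 to 1 without 1 library. At 30 mg/kg against WT it was 3 with the length covariate (Penk, Pdyn and Cartpt; 1.3%) and 0 to 1 without 1 library. Between the doses it was 2 (Cck -0.49 and Sst -0.28) with only the 2 groups in the fit and without the 2 cortex libraries with most short transcripts, settings in which 48.6% and 42.9% of all genes passed, 2 (the same pair, -0.63 and -0.36) without those 3 animals (42.4%), and 0 to 1 without 1 library.

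Signs turned in 13 values that were larger than 1 SE in the main fit, none called. Sign changes of smaller values without a call were not counted. With the length covariate, Npy in striatum was 0.0176 for 30 mg/kg against vehicle and 0.0315 for 100 mg/kg (0.0343 with both covariates), and in cortex between the doses Sst was 0.062 and Cck 0.00655. Vip in striatum at 30 mg/kg against vehicle was -0.0923 with both covariates, and Nts between the doses -0.00188 without the 3 Q175 striata with low Wt1. In cortex at 30 mg/kg against vehicle, Npy was 0.0869 and Cartpt 0.0292 without the 2 libraries with most short transcripts, and 0.0871 and 0.0270 without the 3 animals with low striatal Wt1; without 1 library Npy ran from -0.288 to 0.0814 and Cartpt from -0.455 to 0.0281, the highest of each without vehicle male 3.

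Replicate numbers did not pair the animals: same-numbered libraries correlated at -0.53 to 0.70 over all comparisons in both tissues (means from -0.14 to 0.19), and in none was every pair over 0.1. With the replicate number as a block the counts in striatum were 1 between Q175 mice on vehicle and WT and 2 for each dose against WT. They were 0 in the other comparisons within a tissue. These counts equal those of the fits with sex, where 5.76% (vehicle), 6.69% (30 mg/kg) and 4.94% (100 mg/kg) of genes passed. The share of genes in the block fits is not given here. At most 4 of 8 libraries went best with their own number. Over all members and settings, 5237 values were counted as unchanged, 22 lost the call and 56 gained it. An unchanged value kept its side of the threshold. Its sign may have changed where neither value was called and the main one was within 1 SE of 0. The covariates, the exclusions by length score and, in cortex, by striatal Wt1 were chosen after seeing the data. Depth limits Cartpt and Vip in striatum most.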

Other observations

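Outside the brain the members were low, with exceptions. In heart, Penk had a median of 5.004 FPKM (2.42 to 9.61) and Tac1 of 2.37 FPKM (1.54 to 3.75) over 32 libraries, and both were found in every library. Nts was found in every heart library as well, with a median of 0.774 FPKM (0.425 to 1.48). In tibialis muscle, Penk had a median of 1.045 FPKM and Nts of 0.547 FPKM over 32 libraries, and both were found in every library. The tibialis medians of Npy, Sst, Cck, Pdyn and Cartpt were listed at 0, but 3 libraries held several of them. The same 3 libraries held brain markers: 9 markers of cortical excitatory neurons summed to 47.8 FPKM in 100 mg/kg male 1, 45.5 in WT female 3 and 24.8 in WT male 4, and to at most 0.972 FPKM in every other tibialis library. The peptide values of these 3 libraries are therefore not given as levels in muscle. The library 100 mg/kg male 1 had 23.2 FPKM of Cck, 18.1 of Sst, 11.9 of Npy and 9.09 of Penk. WT female 3 and WT male 4 had 20.2 and 10.6 FPKM of Cck, and 14.5 and 9.39 FPKM of Sst. In liver no member had a median above 0.034 FPKM, and the highest value was 0.77 FPKM of Penk.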
